A study of Rattus norvegicus with 8 samples.

Results

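Interleukins and their receptors were followed in rat lung through hypobaric hypoxia. The members are the probes, outside the control spots, whose gene name in the array design is Il followed by a digit, which gave 75 of 41012 probes and 63 of 35561 gene names. Rats were given cobalt (12.5 mg per kg) or normal saline over 7 days before hypoxia at 30000 ft, which lasted 6, 12, 24 or 48 h. On each of the 8 arrays 1 channel held lung RNA of such a hypoxia group and the other held RNA of rats with the same pretreatment at 0 h, so a group was 1 array and the 4 arrays of a pretreatment shared their 0 h RNA. Strain, sex, age and number of animals per RNA are not in the labels, so a p-value reflects only how the arrays spread. A deviation of a 0 h RNA enters all 4 ratios of its pretreatment alike and is not part of that spread. Standard errors and p-values therefore leave it out, and it cancels only in contrasts between durations. A sign shared by all 8 arrays likewise rests on 1 such RNA per pretreatment. Hypoxia RNA carried Cy3 on the cobalt arrays (slide 2) and Cy5 on the saline arrays (slide 1), so pretreatment, slide, scan day and dye orientation cannot be told apart. A dye effect of a probe common to both slides cancels in the average of both pretreatments, and a constant one also cancels in contrasts between durations. It does not cancel in the response of either pretreatment alone or in cobalt minus saline.

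Interleukins are secreted proteins through which leukocytes, epithelium and endothelium signal to each other. They act through receptor families that share chains: the IL-1 family through receptors with a Toll/IL-1 domain, the IL-2, IL-4 and IL-15 group through the common gamma chain and Janus kinases, the IL-6 group through gp130, and the IL-17 group through receptors of its own. Soluble receptors, decoy receptors and a natural antagonist restrain several of these ligands. In the lung they are known for neutrophil recruitment, allergic inflammation and the upkeep of resident lymphocytes.

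Each member was read by 60-base probes, and a probe reports the stretch of transcript it pairs with. The sequences below are those of some of the genes on which the comparisons turned, as the array files give them, 5′ to 3′, shown to make clear which stretch each value refers to. No base is singled out, so none is in capitals.
Il1r2: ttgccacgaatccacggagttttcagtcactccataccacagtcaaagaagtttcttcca
Il6st: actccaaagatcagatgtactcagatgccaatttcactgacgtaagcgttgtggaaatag
Il1a: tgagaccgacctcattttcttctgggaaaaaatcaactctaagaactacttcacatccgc
Il15: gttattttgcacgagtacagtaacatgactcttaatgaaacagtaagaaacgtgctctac
Il4ra: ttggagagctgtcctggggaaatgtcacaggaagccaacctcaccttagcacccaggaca
Il17r, probe A_43_P21070: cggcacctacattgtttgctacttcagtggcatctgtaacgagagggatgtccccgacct
Il17r, probe A_44_P129187: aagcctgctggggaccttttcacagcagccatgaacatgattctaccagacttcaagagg
In the files' annotation (rat build rn3) the Il1r2 probe lies at chr9:39318068-39320908 and joins separate stretches of genome, the Il6st probe at chr2:43761506-43761565, the Il1a probe at chr3:116820399-116820458 on the minus strand, the Il15 probe at chr19:27500983-27501042 and the Il4ra probe at chr1:184786662-184786721. The Il17r probes lie side by side at chr4:157104938-157104997 and chr4:157104867-157104926, so both read the same part of that transcript. The files do not say whether these positions are coding or untranslated.

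A probe was described further if the scanner software marked it well above background in either channel on 4 or more of the 8 arrays. By that rule 45 of the 75 probes and 37 of the 63 genes passed (58.7%, against 68.1% of all gene names on the array), and all 45 were tested. Of ligand genes 10 of 24 passed (41.7%), of receptor chains 20 of 30 (66.7%), of antagonists, decoys and binding proteins 4 of 6, and both chemokine receptors passed, as did Il1rl1l, a p24 family gene (current symbol Tmed1) named after an IL-1 receptor ligand. The ligands that passed were Il1a, Il1b, Il18, Il1f6 (now Il36a), Il1f8 (now Il36b), Il12a, Il13, Il15, Il16 and Il17b. The ligands that did not pass were Il2, Il3, Il4, Il5, Il6, Il7, Il9, Il10, Il11, Il12b, Il21, Il23a, Il24 and Il1f10. They include the T helper cytokines Il2, Il4 and Il5 and the acute-phase cytokine Il6, whose probe was well above background on 1 array.

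Receptor chains that did not pass were Il5ra, Il7r, Il12rb1, Il12rb2, Il17rb, Il18r1, Il18rap, Il20ra, Il1rapl1 and Il1rapl2. Il1f5 (now Il36rn), the antagonist of the IL-36 receptor, and the decoy receptor Il13ra2 did not pass either. Among families, 12 of 18 IL-1 family genes, 9 of 16 of the common gamma chain and IL-13 group, 5 of 11 of the gp130 and IL-12 group, 4 of 5 of the IL-17 family, 2 of 5 of the IL-10 family and 1 of 4 of the common beta chain group passed. Of the passing probes, 35 were well above background in both channels on all 8 arrays. The probes just inside the threshold, on 4 arrays, were those of Il1f6 and 1 of Il2ra, and those just outside, on 3 arrays, were Il17rb, Il9 and the dimmer probe of Il1rn. Probes that did not pass have no ratio here, and 16 of the 30 were below that mark on every array.

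**Figure D1:**
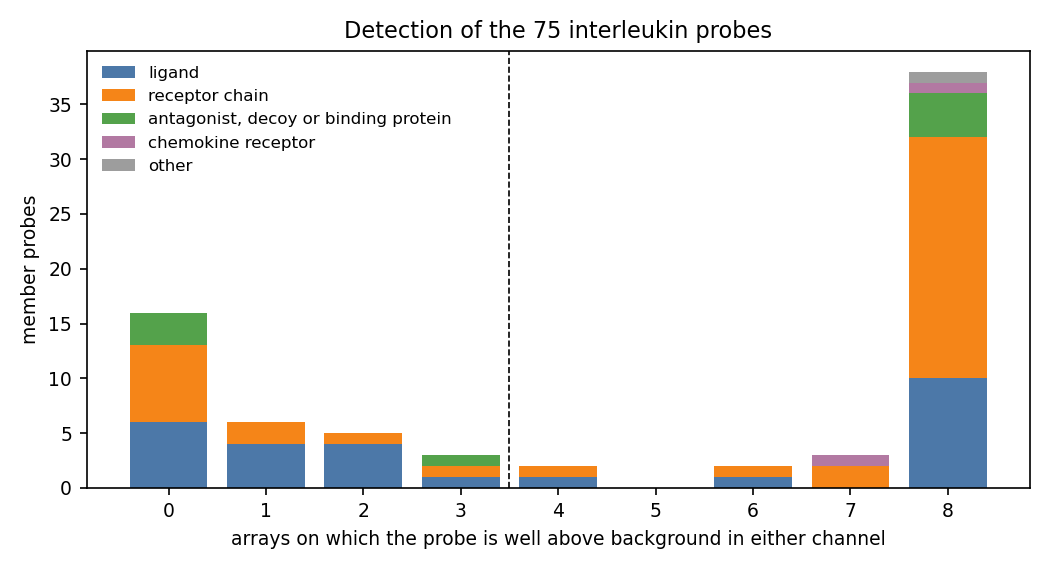
Number of member probes (vertical axis) by the number of arrays, from 0 to 8, on which the probe was well above background in either channel, coloured by the role of the gene; the dashed line is the threshold of 4 arrays. Of the 75 probes, 30 lie left of the line and 45 right of it.

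Type II cell surfactant genes marked the tissue as lung, with all 7 tested and summed intensities of 173400 to 327100 in hypoxia channels and 171600 to 378600 at 0 h. Median signals over all spots were 73.9 to 92.8 in the green channel and 110 to 163 in the red channel, over backgrounds of 41.5 to 48. Log2 ratios over all tested probes correlated at 0.41 to 0.75 among cobalt arrays, at 0.57 to 0.71 among saline arrays, and at -0.10 to 0.27 between the pretreatments. With bulk RNA, fewer cells of a type and less RNA per cell cannot be told apart.

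All values below are log2 ratios of hypoxia over 0 h unless called intensities, and estimates are given ± SE from limma, fitted over all 28419 tested probes with Benjamini-Hochberg adjustment. A probe was called at an adjusted p under 0.05. Averaged over durations and both pretreatments, the decoy receptor Il1r2, the ligand Il17b and the signalling chain Il6st rose by the largest amounts of all members, and Il2rb, Il1a, Il4ra and Il15 fell most. In that average 15 of 45 member probes were called (33.3%, against 32.4% of all probes). By gene, with the brightest probe standing for each, 7 rose and 7 fell of 37, and all probes divided into 15% called higher and 17.4% called lower. The median over member genes was -0.002, against -0.001 over all gene names tested. Of member genes 37.8% were called, against 32.2% of all gene names tested, so the family as a whole was called about as often as other genes.

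**Figure D2:**
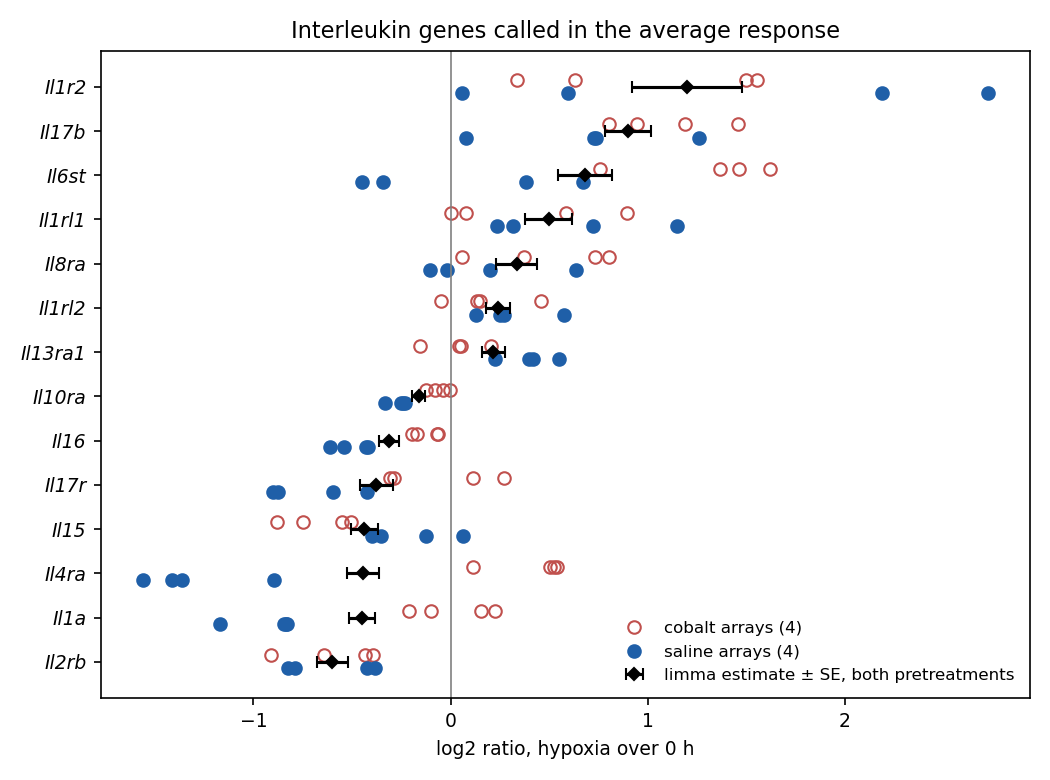
Log2 ratio of hypoxia over 0 h (horizontal axis) for the 14 member genes called in the average response, 1 point per array, cobalt arrays as open red circles and saline arrays as filled blue circles, with the limma estimate ± SE over both pretreatments as a black diamond. Il1r2 reaches 2.73 on 1 saline array, and the Il4ra circles of cobalt and saline arrays lie on opposite sides of 0.

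Il1r2 encodes the type II IL-1 receptor, a decoy that binds IL-1 without signalling. Its log2 ratios at 6, 12, 24 and 48 h were 1.50, 0.34, 1.55 and 0.63 after cobalt and 2.73, 2.19, 0.60 and 0.06 after saline. On the normalized intensity scale the hypoxia channels read 694, 312, 730 and 374 after cobalt and 2262, 1278, 368 and 257 after saline, while the 0 h channels read 241 to 248 after cobalt and 243 to 342 after saline. All 8 arrays were above 0, and within saline the early arrays stood far above the later ones, while the cobalt arrays were high at 6 and 24 h. The average estimate was 1.20 ± 0.28 (adjusted p = 0.0097), a fold of 2.30.

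Several receptors of the IL-1 family lie near each other on chromosome 9, where the files place Il1r2, Il1r1, Il1rl2, Il1rl1, Il18r1 and Il18rap within 360.7 kb (chr9:39318068-39678795, rn3). Il1rl2, the IL-36 receptor, rose by 0.24 ± 0.06 (adjusted p = 0.015), with values of 0.46, 0.13, 0.15 and -0.05 after cobalt and 0.58, 0.13, 0.27 and 0.25 after saline. Its probe was dim, well above background on 6 arrays in the hypoxia channel and 4 in the 0 h channel, and the size of its estimate depended on the processing, at 1.37 with the scanner software's log ratio. Il1r1, the signalling IL-1 receptor, was not called (0.06 ± 0.04, adjusted p = 0.31). Its passing probe was dim too, well above background on 7 arrays in the hypoxia channel and 5 in the 0 h channel. The ratios of such probes are shrunk towards 0, and the other Il1r1 probe did not pass. Il18r1 and Il18rap, the IL-18 receptor chains, did not pass the background threshold. Il1rap, the accessory chain of the receptors for IL-1, IL-33 and IL-36, which lies on another chromosome, was not called either (0.03 ± 0.07).

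Il1rl1, the IL-33 receptor ST2, was read by a pair of probes that differed. It is known to give a membrane form and a soluble form with different 3′ ends. Probe A_43_P11672 gave 0.59, 0.08, 0.89 and 0.002 after cobalt and 1.15, 0.72, 0.23 and 0.32 after saline, and rose by 0.50 ± 0.12 (adjusted p = 0.012). Probe A_44_P365584, downstream of it in the files' coordinates, ranged from -0.09 to 0.15 over all 8 arrays and was not called (0.02 ± 0.04, adjusted p = 0.76). Like Il1r2, the first probe had its highest saline ratio at 6 h and its highest cobalt ratio at 24 h. Both probes were dim, well above background on 6 arrays in the hypoxia channel. With the scanner software's log ratio the estimate of the first was 1.33, and the files do not say which transcript form each one reads.

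Among the member ligands of the IL-1 family only Il1a was called in the average, and it fell by 0.45 on the log2 scale (± 0.07, adjusted p = 0.0011). Il33, a further ligand of that family that the naming rule does not catch, was also lower and is given under Other observations. Il1a is the IL-1 form held in epithelium and released on cell damage. Its ratios were 0.15, -0.10, -0.21 and 0.23 after cobalt and -1.17, -0.83, -0.83 and -0.85 after saline. The saline arrays were all low and the cobalt arrays lay on both sides of 0, so the groups did not overlap. Il1b, which lies 49.6 kb from Il1a on chromosome 3, had average estimates of -0.14 ± 0.11 and -0.10 ± 0.13 by its 2 probes and was not called. Il18 (estimates -0.01 and 0.09 by its 2 probes), Il1f6 (-0.04), Il1f8 (-0.04), the receptor antagonist Il1rn (-0.03) and the IL-18 binding protein Il18bp (0.08) were not called in the average.

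In the gp130 group, Il6st, the chain through which IL-6, IL-11 and related cytokines signal, rose by 0.68 ± 0.14 (adjusted p = 0.0049). Its ratios were 1.37, 0.76, 1.47 and 1.62 after cobalt and 0.67, 0.39, -0.45 and -0.35 after saline. Every cobalt array was above every saline array, and the saline values changed sign between 12 and 24 h. Hypoxia intensities were 2230, 1345, 2947 and 3227 after cobalt and 1002, 876, 467 and 610 after saline, against 0 h intensities of 795 to 1067 after cobalt and 629 to 774 after saline. Il6ra, the IL-6 binding chain, was not called (-0.22 ± 0.12, adjusted p = 0.17), nor were Il11ra1 (0.07), Il27ra (-0.06) and the IL-12 and IL-35 subunit Il12a (0.10 ± 0.04, adjusted p = 0.053).

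Il17b, a ligand of the IL-17 family, rose by 0.90 ± 0.12 (adjusted p = 0.00067), a fold of 1.87. Its ratios were 0.80, 1.19, 1.46 and 0.95 after cobalt and 0.08, 0.73, 1.26 and 0.74 after saline. All 8 arrays were above 0, with the highest value of each pretreatment at 24 h and the lowest at 6 h. Hypoxia intensities were 355, 526, 625 and 428 after cobalt and 611, 921, 1210 and 604 after saline, against 0 h intensities of 203 to 231 after cobalt and 361 to 578 after saline.

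Il17r (now Il17ra), the chain shared by IL-17A and related ligands, fell by both of its probes, by 0.38 (± 0.09, adjusted p = 0.0086) and 0.25 (± 0.08, adjusted p = 0.038). Its brighter probe gave -0.29, -0.31, 0.11 and 0.27 after cobalt and -0.42, -0.88, -0.90 and -0.60 after saline. The saline arrays were all low, while the cobalt arrays were below 0 early and above 0 late. Il17rc (0.04 ± 0.05) and Il17re (-0.002 ± 0.07), neighbours on chromosome 4 at a distance of 12.4 kb and partner chains of Il17r, were not called.

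In the group of the common gamma chain, Il2rb fell most. It is the beta chain that IL-2 and IL-15 share, carried by NK cells and T cells. Its ratios were -0.64, -0.39, -0.91 and -0.43 after cobalt and -0.83, -0.38, -0.79 and -0.42 after saline, and the estimate was -0.60 ± 0.08 (adjusted p = 0.00069). Both pretreatments were lower at 6 and 24 h than at 12 and 48 h, and at each duration their values lay close together. Il15, the ligand that sustains NK cells, fell by 0.44 (± 0.07, adjusted p = 0.0018), with ratios of -0.75, -0.50, -0.88 and -0.55 after cobalt and -0.35, -0.13, 0.07 and -0.40 after saline. All cobalt arrays were below all saline arrays for Il15. The common chain itself, Il2rg, was not called (0.17 ± 0.09, adjusted p = 0.18), nor were Il2ra, Il9r, Il13, Il21r and Il3ra of the common beta chain group (estimates from -0.44 to 0.09).

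Il4ra (now Il4r), the receptor chain for IL-4 and IL-13, gave 0.51, 0.11, 0.53 and 0.54 after cobalt and -0.90, -1.41, -1.56 and -1.36 after saline. Every cobalt array was above 0 and every saline array below. Its average of -0.44 ± 0.08 (adjusted p = 0.0032) is thus the mean of values of opposite sign. Il21r lies 55.8 kb from it on chromosome 1 and gave 0.63, -0.03, -0.47 and -0.21 after cobalt and -1.37, -0.02, -1.04 and -0.99 after saline. Il21r was not called in the average (-0.44 ± 0.15, adjusted p = 0.052).

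Il13ra1, the partner of Il4ra in the IL-13 receptor, had 4 probes, and 1 of them was called. Probe A_44_P741723, the brightest and the most 3′ of them in the files' coordinates, gave 0.04, -0.15, 0.06 and 0.21 after cobalt and 0.55, 0.22, 0.40 and 0.42 after saline, with an estimate of 0.22 ± 0.06 (adjusted p = 0.017). The other probes, which lie 0.82, 2.79 and 2.91 kb upstream of it, had estimates of -0.09, -0.01 and -0.03 and were not called. Averaging the 4 probes ended the call (0.02 ± 0.06, adjusted p = 0.81). Of the 6 genes with several passing probes, Il17r was called by all of them, Il13ra1 and Il1rl1 by 1, and Il18, Il1b and Il2ra by none.

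**Figure D3:**
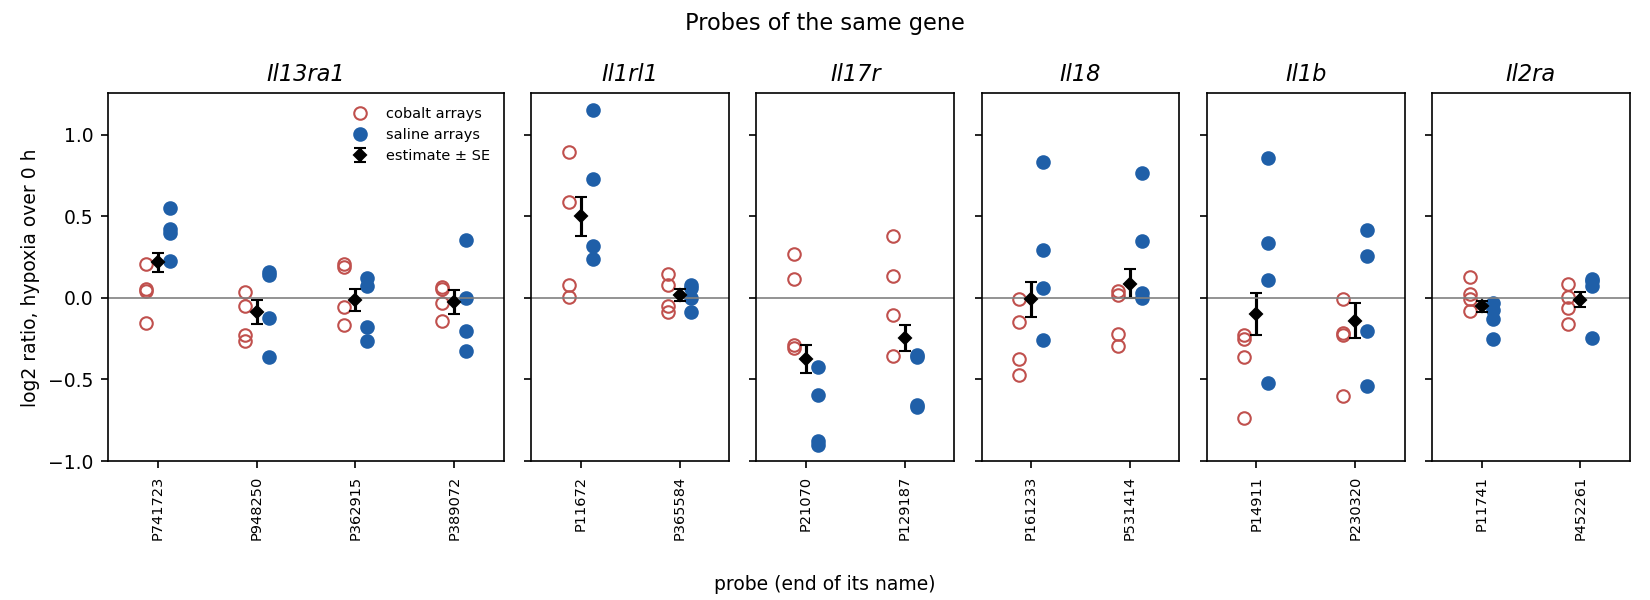
Log2 ratio of hypoxia over 0 h (vertical axis) for each passing probe of the 6 genes with several such probes, with cobalt arrays as open red circles left of saline arrays as filled blue circles, and the average estimate ± SE as a black diamond; the Il13ra1 probes run from the most 3′ one at the left. The diamonds of the leftmost Il13ra1 probe and the first Il1rl1 probe lie above 0, and those of both Il17r probes lie below 0.

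Of the remaining called genes, Il16, a T cell chemoattractant, fell by 0.31 (± 0.05, adjusted p = 0.0020), with ratios of -0.07, -0.19, -0.06 and -0.17 after cobalt and -0.43, -0.42, -0.61 and -0.54 after saline. Il10ra, the IL-10 binding chain, fell by 0.16 (± 0.03, adjusted p = 0.0041), with ratios of -0.12, -0.08, -0.04 and -0.002 after cobalt and -0.23, -0.33, -0.25 and -0.24 after saline. Its probe was dim, at a median signal over background of 1.77, though well above background in both channels on all 8 arrays. With the scanner software's log ratio its estimate was -0.57. Il16 and Il10ra were below 0 on all 8 arrays and lower on every saline array than on any cobalt array. Il8ra (now Cxcr1), a neutrophil chemokine receptor, rose by 0.34 ± 0.10 (adjusted p = 0.033), with ratios of 0.81, 0.06, 0.73 and 0.37 after cobalt and 0.64, 0.20, -0.02 and -0.10 after saline. This call was lost without the array of 6 or 24 h after cobalt, or of 6 or 12 h after saline (adjusted p from 0.065 to 0.093). Its neighbour Il8rb (now Cxcr2), 33.8 kb away on chromosome 9, was not called (0.03 ± 0.05). Il22ra2, the soluble IL-22 binding protein, was not called in the average (-0.14 ± 0.15).

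Marker lists of leukocytes were read beside these genes, with 15% of all probes called higher and 17.4% called lower in the average. Of 12 tested T and NK cell markers 7 fell and none rose in the average, with a median of -0.41, and their summed intensity was 5129 to 12730 in hypoxia channels, against 10090 to 13070 at 0 h. The strongest were the cytotoxic granule genes Prf1 (-1.12 ± 0.10, adjusted p = 8.3e-05) and Gzma (-1.18 ± 0.14, adjusted p = 0.00046), while Cd4 was too dim to be tested. The part of these cells in the values of Il2rb, Il15, Il16 and Il10ra was not tested.

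Of 7 tested neutrophil markers none was called higher and 1, Csf3r, was called lower (-0.32 ± 0.09, adjusted p = 0.018), with a median over the 7 of 0.23. Their summed intensities were 4517 to 25040 in hypoxia channels and 4849 to 10180 at 0 h. By pretreatment 1 was called higher after cobalt (Ngp, 0.25 ± 0.06) and 1 lower after saline (Csf3r, -0.71 ± 0.12). The part of neutrophils in the values of Il1r2 and Il8ra was not tested. Of 6 alveolar macrophage markers 3 rose (among them Pparg and Chi3l1), and of 6 club cell markers 3 rose (among them Scgb3a2 and Scgb3a1). Of 8 endothelial markers 3 fell in the average (among them Tek and Kdr). By pretreatment 5 of these 8 were called lower after saline, while after cobalt 2 were called higher and 0 lower. Of 7 type II cell markers 3 fell (among them Lamp3 and Sftpa1), and of 8 mast cell and eosinophil markers 1 fell (Kit).

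After cobalt, 8 of 45 member probes were called (17.8%, against 20.5% of all probes), with 5 higher and 3 lower, against 8.57% and 12% of all probes. After saline 15 were called (33.3%, against 40.8%), with 6 higher and 9 lower, against 20.6% and 20.2%. By gene, Il17b rose and Il2rb fell after both pretreatments, and Il4ra was called higher after cobalt and lower after saline. Called after cobalt and not after saline, Il6st (1.30 ± 0.19), Il8ra (0.49 ± 0.15) and the IL-11 receptor Il11ra1 (0.23 ± 0.07) were higher, and Il15 (-0.67 ± 0.10) and Il1f8 (-0.23 ± 0.06) lower. Called after saline and not after cobalt, Il1r2 (1.39 ± 0.39), Il1rl1 (0.61 ± 0.17), Il13ra1 (0.40 ± 0.08), Il18bp (0.33 ± 0.09) and Il1rl2 (0.31 ± 0.09) were higher, and Il1a (-0.92 ± 0.09), Il21r (-0.85 ± 0.22), Il17r (-0.70 ± 0.12), Il16 (-0.50 ± 0.07), Il3ra (-0.33 ± 0.11) and Il10ra (-0.26 ± 0.04) lower. The cobalt count by gene, 8, dropped to 4 without the array of 6, 24 or 48 h after cobalt. Of all probes, 12.4%, 9.24% and 13.5% were called in those fits.

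The difference itself, cobalt response minus saline response, was called for 13 of 45 member probes (28.9%, against 30.4% of all probes), 9 of them higher and 4 lower (13.9% and 16.5% of all probes), or 12 genes. The lowest p belonged to Il4ra (1.73 ± 0.16, adjusted p = 0.00017), Il1a (0.94 ± 0.13, adjusted p = 0.0010) and Il6st (1.24 ± 0.27, adjusted p = 0.0083). Il1f8 gave -0.37, -0.14, -0.22 and -0.18 after cobalt and 0.24, 0.12, -0.03 and 0.24 after saline, a difference of -0.37 ± 0.08 (adjusted p = 0.0094). The hypoxia channel of that probe was well above background on 1 of the 4 cobalt arrays, and the call was lost with the scanner software's log ratio (-0.71, adjusted p = 0.11) and with median centring (-0.15, adjusted p = 0.17). Il18bp, which binds and neutralises IL-18, gave -0.12, -0.27, -0.16 and -0.10 after cobalt and 0.34, 0.57, 0.07 and 0.36 after saline, a difference of -0.50 ± 0.12 (adjusted p = 0.014). For both, every cobalt array was below 0 and below every saline array. The count by gene, 12, was 6 without the array of 24 h of either pretreatment and 7 without that of 6 h after cobalt. Of all probes, 21.8% were called without the 24 h cobalt array, 25.3% without the 24 h saline array and 26.3% without the 6 h cobalt array. With duration as a factor, which sets the cobalt array against the saline array of the same duration, the count was 8, and the calls lost were those of Il10ra, Il11ra1, Il15 and Il1rn (adjusted p from 0.052 to 0.067). In that fit 30.7% of all probes were called. Since a dye effect of a probe enters this difference with its full size on both slides, its part in these values cannot be told apart from that of cobalt. With each array centred on its median in place of loess, which moved the median of all probes to -0.73, the difference was 0.07 for Il4ra (adjusted p = 0.78) and turned to -0.30 for Il6st (adjusted p = 0.38).

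The difference was not called for Il1r2 (-0.39), Il17b (0.40), Il2rb (0.01), Il8ra (0.31), Il1rl1 (-0.22) or Il1rl2 (-0.13), and a miss does not show that the pretreatments acted alike. Type II cell markers were called higher for 3 of 7 after cobalt and lower for 6 of 7 after saline. Club cell markers were called lower for 2 of 6 after cobalt and higher for 5 of 6 after saline. Their part in the difference was not tested.

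**Figure D4:**
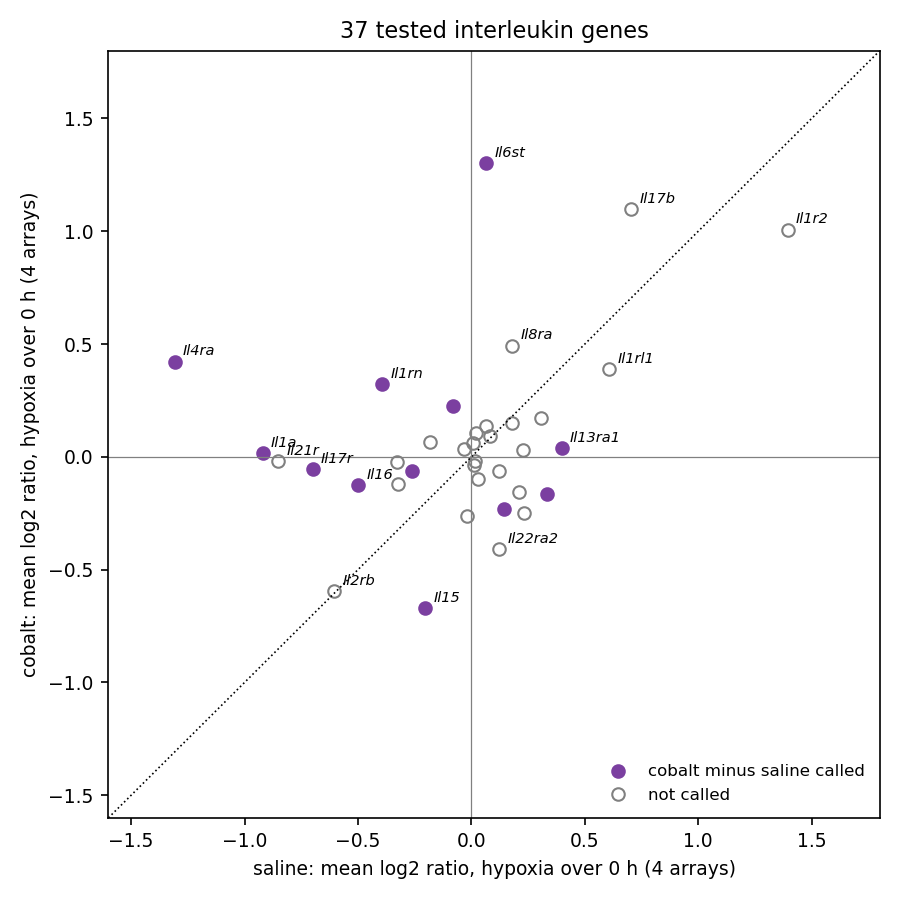
Mean log2 ratio of hypoxia over 0 h on the 4 cobalt arrays (vertical axis) against that on the 4 saline arrays (horizontal axis) for the 37 tested member genes, with filled points where cobalt minus saline was called and the dotted line marking equal values. Il6st and Il4ra lie far above the line, Il2rb lies on it, and Il15 lies below it.

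By duration, with the cobalt and the saline array of that duration averaged, member calls were few. At 6 h 5 member probes were called (11.1%, against 8.01% of all probes), 4 higher and 1 lower (4.04% and 3.97% of all probes). Il1r2 (2.11 ± 0.46), Il8ra (0.72 ± 0.16), Il1rl2 (0.52 ± 0.08) and the IL-9 receptor Il9r (0.44 ± 0.10) rose, and Il2rb fell (-0.73 ± 0.11). At 12 h only Il17b was called (0.96 ± 0.13, adjusted p = 0.021; 2.22% of members, against 4.37% of all probes). At 24 h Il17b rose (1.36 ± 0.13, adjusted p = 0.0085) and Il2rb fell (-0.85 ± 0.11, adjusted p = 0.021), against 1.36% of all probes called. At 48 h only Il17b was called (0.84 ± 0.13, adjusted p = 0.034, against 1.59% of all probes). Il9r gave 0.40, 0.05, 0.18 and -0.25 after cobalt and 0.49, 0.05, -0.09 and -0.12 after saline, highest at 6 h on both sides. Each duration rests on 2 arrays: without either array of 6 h no member was called at 6 h, and without either array of 12, 24 or 48 h none was called at that duration. In those fits 0.0211% to 3.57% of all probes were called at the same duration. Without either array of 48 h the count was 2 at 6 h, 0 at 12 h and 1 at 24 h, and without either array of 24 h it was 0 at 48 h. Calls over all probes were fewer in these fits as well. They were 3.23% to 3.26% at 6 h, 0.64% to 0.707% at 12 h and 0.461% to 0.5% at 24 h without an array of 48 h. Without an array of 24 h they were 0.735% to 0.799% at 48 h.

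The contrast of 24 and 48 h with 6 and 12 h was called for no probe on the array (0% of all probes, lowest adjusted p = 0.29). At an unadjusted p under 0.05 it held 6 member probes and 13.2% of all probes. The members with the lowest p were Il6ra (-0.60 ± 0.14), Il22ra2 (-0.60 ± 0.14) and Il1r2 (-0.98 ± 0.31). Il6ra gave 0.23, 0.04, -0.40 and -0.36 after cobalt and 0.28, -0.25, -0.57 and -0.76 after saline, lower at both late durations than at both early ones within each pretreatment. Il22ra2 gave -0.20, -0.61, -0.46 and -0.35 after cobalt and 0.55, 0.89, -0.38 and -0.58 after saline, and separated early from late only among the saline arrays.

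A test of any difference between the 4 durations called 2 probes on the array (0.00704%) and no member. At an unadjusted p under 0.05 it held 5 member probes and 8.36% of all probes. Its lowest adjusted p among members were 0.39 for Il6ra, 0.46 for Il17b and 0.50 for Il9r. The difference of the late minus early contrast between cobalt and saline was called for no probe (0% of all probes). At an unadjusted p under 0.05 it held 6 member probes and 5.26% of all probes.

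**Figure D5:**
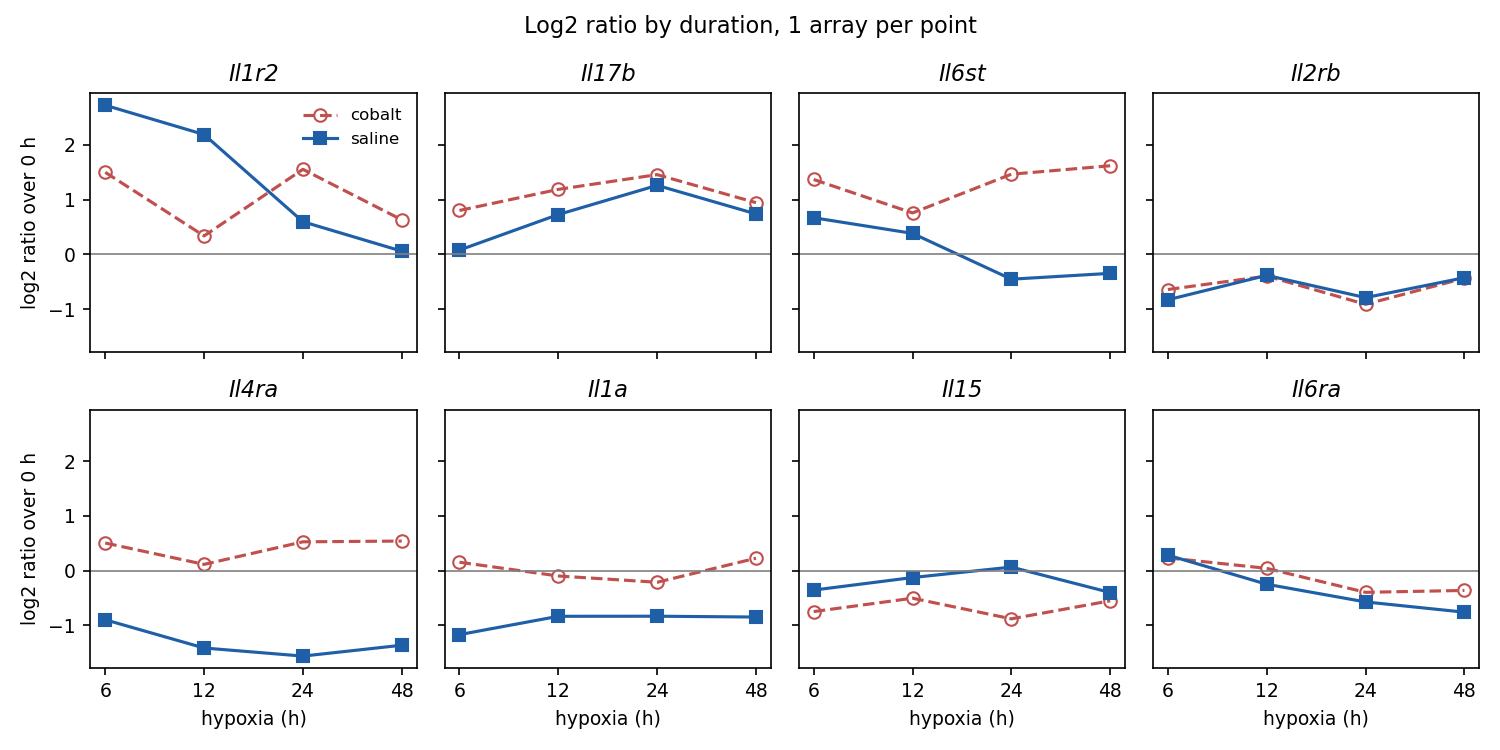
Log2 ratio of hypoxia over 0 h (vertical axis, the same in every panel) against hours of hypoxia (horizontal axis, equally spaced categories) for 8 member genes, with 1 array per point, cobalt as dashed red lines and saline as solid blue lines. Il17b peaks at 24 h on both lines, Il2rb runs together on both, and Il6st and Il4ra keep the cobalt line above the saline line at every duration.

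Signalling genes downstream of these receptors were read from lists of genes outside the members. Of 10 tested JAK and STAT genes, 1 rose and 3 fell in the average (median -0.11), against 32.4% of all probes called. Stat4, which relays IL-12, gave -0.40 ± 0.06 (adjusted p = 0.00089), and Jak1, the kinase bound by gp130 and the gamma chain receptors, gave -0.31 ± 0.05 (adjusted p = 0.0020). None of the 8 SOCS feedback inhibitors was called (median -0.03), with the lowest p for Socs1 (-0.18 ± 0.07, adjusted p = 0.071) and Socs6 (-0.13 ± 0.05, adjusted p = 0.081). At an unadjusted p under 0.05 limma gave 3 of the 8 in the average, against 43.9% of all probes. By pretreatment 1 was called higher after cobalt (8.57% of all probes) and 4 were called lower after saline (20.2% of all probes).

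Of 14 tested genes of IL-1 and Toll adaptor signalling, 1 rose and 4 fell (median -0.07), with the kinase Irak2 at -0.28 ± 0.05 (adjusted p = 0.0029) and Irak4 at 0.27 ± 0.06 (adjusted p = 0.0058). Of 8 inflammasome genes, which process IL-1 beta and IL-18, 1 rose and 3 fell (median -0.10), with Nlrp3 at -0.14 ± 0.04 (adjusted p = 0.022) and Casp1 at -0.29 ± 0.09 (adjusted p = 0.035). Of 11 tested receptor chains and cytokines of the same families that carry other symbols, 1 rose and 3 fell (median -0.12). The one that rose was Osmr, a partner of gp130 in the oncostatin M receptor (0.40 ± 0.05, adjusted p = 0.00040), and Lepr fell (-0.26 ± 0.05, adjusted p = 0.0051).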

How the data were processed

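Lung RNA was measured on 8 arrays of 45018 spots. Per the file headers, Agilent's Feature Extraction software (9.5.1.1) produced the deposited scanner files, in which each spot has a mean intensity and a background intensity. Per the file headers, the LogRatio column is a log10 ratio of the red channel to the green one, normalized by that software. The deposited series matrix is on the log2 scale and runs as hypoxia over 0 h, as its slope of 3.32 against LogRatio on saline arrays and its turned sign on cobalt arrays show.

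In limma 3.58.1 under R 4.3.3, intensities went through normexp background correction (offset 50) and loess within arrays (span 0.3). Flagged outlier spots were dropped, spots of a probe averaged, and mean intensities set equal between arrays by quantiles for levels only. A probe with several spots was well above background where at least 50% of its spots were. A probe was tested if well above background on 4 or more arrays and measured on all 8. One model with a mean per pretreatment, one with pretreatment by early or late, and one with pretreatment and duration gave the tests, with a variance trend over mean intensity. The 75 member probes were named from RefSeq (assembly GRCr8) by accession (51), symbol (19) or synonym (5), and 9 genes have another current symbol.

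The members, lists and tests were chosen with earlier results of these data known. Some marker results are not reported here. By rule, values on all arrays were given for members called with 1 sign on 8 arrays, for the 5 lowest p in cobalt minus saline and the 3 lowest in late minus early and between durations, and other called members were added. Recovery by limma was simulated with 200 changed of 28419 probes. For the average response 80% of log2 changes of 0.5 and 97.5% of those of 1 were recovered. The shares were 7% and 76.5% for cobalt minus saline, and 0% and 67.5% for late minus early. In the data 32.4% of all probes were called in the average and 30.4% in cobalt minus saline. With so few changed probes the adjustment set a stricter cut-off in the simulation. Its shares for the average and for cobalt minus saline thus do not give the recovery in these data.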

Additional observations from a re-analysis of the deposited data

Results flagged for a closer look

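The responses after cobalt and after saline differed by limma's test of the difference for 13 member probes, given here as cobalt minus saline in log2. The difference was positive for Il4ra (1.73), Il6st (1.24), Il1a (0.94), Il1rn (0.72), the 2 probes of Il17r (0.65 and 0.52), Il16 (0.38), Il11ra1 (0.31) and Il10ra (0.20). It was negative for Il18bp (-0.50), Il15 (-0.47), Il1f8 (-0.37) and 1 probe of Il13ra1 (-0.36). Il1rn, the IL-1 receptor antagonist, gave 0.85, -0.03, 0.43 and 0.05 after cobalt and -0.49, 0.23, -0.67 and -0.64 after saline, and Il11ra1 gave 0.14, 0.29, 0.33 and 0.14 after cobalt and -0.21, -0.08, -0.06 and 0.03 after saline. Over 20 alternatives of processing, design or a left-out array, the call was lost in 10 for Il1rn, 9 for Il11ra1, 10 for Il10ra and 9 for Il13ra1, and Il1rn and Il11ra1 turned negative with median centring (-1.13 and -1.80). It was also lost in 5 for Il15, 4 for Il16, 2 for the brighter Il17r probe, 1 for Il4ra and, of 19, in 3 for Il1f8. Il16, Il17r and Il6st turned negative with median centring as well, where Il17r and Il6st were no longer called, and Il1a and Il18bp kept the call in all 20. All 20 kept the same 0 h RNA. Il1a intensities at 0 h were 150 to 167 after cobalt and 246.5 to 290 after saline. In hypoxia they were 140 to 195 and 117 to 161. Those of Il18bp were 246 to 285 and 174 to 199 at 0 h, and 226.5 to 256 and 209.5 to 294 in hypoxia. The part of the 0 h RNA in these differences was not tested. Pretreatment, slide, scan day and dye orientation cannot be told apart in any of these.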

How the results depend on the processing

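All counts here are member genes, of 37. In the average response 14 were called, against 13 to 17 under the 12 alternatives of processing or design, and 13 to 16 with 1 array left out. Of all probes, 32.4% were called there, against 21.1% to 47.8% under those alternatives and 23.2% to 31.5% with 1 array left out. The named calls of the average held in every alternative that tested the gene except those of Il13ra1 (0.17 with median centring in place of loess, 0.02 with probes averaged) and Il8ra (0.15 with median centring, and the left-out arrays given above). With the software's log ratio or the series matrix the average estimates were 1.33 for Il1rl1, 1.37 for Il1rl2, -0.57 for Il10ra, -0.63 for Il17r and -0.71 for Il1a. With median centring they were -0.48 for Il16, -0.59 for Il17r and 0.38 for Il1rl2, and with probes averaged 0.26 for Il1rl1. The cause of these moves was not tested.

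Median centring moved the median of all probes to -0.48 after cobalt, 0.24 after saline and -0.73 in cobalt minus saline, and gave 27 calls after cobalt (8 in the main analysis), 22 after saline (14), 26 in cobalt minus saline (12) and 7 at 12 h (1). Of all probes it called 80% after cobalt (20.5% in the main analysis), 57.9% after saline (40.8%), 78.2% in cobalt minus saline (30.4%) and 22.4% at 12 h (4.37%). Under it cobalt minus saline turned negative for Il11ra1 (-1.80), Il1rn (-1.13), Il16 (-0.59), Il6st (-0.30) and Il17r (-0.19), and fell to 0.07 for Il4ra. Relative to the median of all probes, Il6st, Il16, Il17r and Il4ra stayed above it, while Il11ra1 and Il1rn were above it in the main analysis and below it here. At 6 h (5 calls) the count was 3 with the series matrix, with unsubtracted background and with the software's log ratio, and scaling between arrays gave 1. Of all probes these called 7.99%, 7.91%, 7.99% and 4.12% at 6 h (8.01% in the main analysis). At 12 h the software's log ratio, the series matrix, the strict filter and no variance trend gave 2. Of all probes these called 6.73%, 6.63%, 7.98% and 5.09% at 12 h (4.37% in the main analysis). At 48 h (1 call) scaling gave 0 and called 0.373% of all probes (1.59% in the main analysis).

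With 1 array left out, counts were 4 to 8 after cobalt, 11 to 14 after saline, 6 to 11 in cobalt minus saline, 0 to 6 at 6 h, 0 to 2 at 12 h, 0 to 2 at 24 h, 0 to 1 at 48 h and 0 in the contrasts over time. Of all probes, 9.24% to 22.9% were then called after cobalt, 31.9% to 40.2% after saline and 21.8% to 30.4% in cobalt minus saline. No paired analysis by replicate number was possible because each group holds 1 array. With duration as a factor, which sets the cobalt against the saline array of a duration, 15 genes were called in the average and 8 in cobalt minus saline. Dim probes limit what can be seen: ratios of probes near background are shrunk towards 0, and the simulation had no shared 0 h RNA, slide or dye effect.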

Other observations

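The array holds 5 further probes whose current symbol is an interleukin or its receptor but whose older name in the files the naming rule does not catch, and all were tested. They were looked up after their values were seen. Il33, the ligand of Il1rl1, an alarmin held in the nucleus of epithelial and endothelial cells, was lower by both of its probes. Probe A_44_P310596 gave -0.90, -1.21, -0.72 and -0.82 after cobalt and -1.17, -1.41, -0.99 and -0.92 after saline, with an average of -1.02 ± 0.07 (adjusted p = 3.0e-05, limma). Probe A_44_P1029131 gave -0.93, -1.04, -0.65 and -0.72 after cobalt and -0.04, -0.18, -0.37 and -0.50 after saline, with an average of -0.55 ± 0.07 (adjusted p = 0.00056). Both were below 0 on all 8 arrays. The IL-22 receptor chain Il22ra1 gave -0.24 ± 0.06 (adjusted p = 0.017) in the average, while Il10rb (-0.11 ± 0.06) and Il20rb (0.01 ± 0.06) were not called.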
